A study of Mus musculus with 33 samples.

Results

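Expression of glycolysis and hypoxia response genes was followed through tendon and fibrocartilage induction of mouse embryonic stem cells (mESCs). The set was chosen by mouse gene symbol and comprised 37 of the 17120 genes in the count table, and all 37 were found there. Of these, 24 carry glucose from uptake to lactate or regulate that route, and 13 encode other proteins whose genes respond to low oxygen. The mESCs came from blastocysts of mice with the ScxGFP reporter, in which the tendon transcription factor Scx marks cells by green fluorescence, and were taken through embryoid bodies to paraxial mesoderm (PM) with the BMP inhibitor LDN-193189 and the Wnt agonist CHIR. From D6 all later cultures received TGFβ1, the smoothened agonist SAG and FGF2, together with CD1530, an agonist of retinoic acid receptor γ, in the tendon arm, or AGN 193109 (AGN), which lowers the basal activity of these receptors as an inverse agonist, in the fibrocartilage arm. Libraries were made from 3 biological replicates of PM at D6 (day 0 of induction) and of each arm after 0.25, 0.75, 1.5, 2.5 and 4 days of induction, named D6.25 to D10 by the day of culture, giving 33 libraries in 11 groups. The study worked with several ScxGFP lines, and describes paraxial mesoderm made with no retinoid, with AGN or with all-trans retinoic acid before D6. The line behind each library and which of these it received are not given in the sources used here. PM was collected as embryoid bodies before the medium changed at D6, and every later group as a monolayer after it. Culture format, medium and time with ligand therefore cannot be told apart in comparisons with PM.

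Cells take up glucose through facilitative transporters, phosphorylate it with hexokinase and split it in the cytosol to pyruvate, which lactate dehydrogenase reduces to lactate for export or the pyruvate dehydrogenase complex passes to mitochondria. When oxygen is scarce, the EGLN prolyl hydroxylases stop marking the α subunits of hypoxia-inducible factor (HIF) for destruction, and HIF raises transcription of transporters, glycolytic enzymes and genes for vessel growth, pH control, collagen hydroxylation and mitophagy. Pluripotent cells are known for rapid glycolysis, and cartilage is an avascular tissue whose chondrocytes depend on HIF-1 and on glycolysis.

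Levels are given as TMM CPM, counts per 1000000 of the library after edgeR's TMM scaling, and as mean ± SD of 3 libraries where not listed singly. CPM is not corrected for gene length, so each gene was compared with itself between groups. Fold changes are log2 values ± SE from edgeR's quasi-likelihood test, and a gene was called at a Benjamini-Hochberg adjusted p under 0.05 over all 17120 genes. Library totals ran from 17.1 to 22.8 M counts (M, 1000000), except for AGN D8.5 replicate 1 with 38.1 M. The labelled states were checked against their markers: the paraxial mesoderm gene Tbx6 had 9.56 CPM in PM and 0.285 and 0.36 in CD1530 and AGN at D10, Scx had 6.41 in PM against 858 and 1223, and the cartilage collagen gene Col2a1 had 11 against 145 and 2497. The 8 paraxial mesoderm markers together did not fall as Tbx6 did, summing to 124 CPM in PM and 115 and 138 in CD1530 and AGN at D10. PM also held 701 CPM of the pluripotency gene Pou5f1, which was at 26.6 and 149 at D10. In bulk RNA, fewer cells of a type and less RNA per cell cannot be told apart.

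The members held 1.98% of all counts in PM and 1.59% and 1.63% in CD1530 and AGN at D6.25, the lowest share being 1.35% in AGN at D8.5, before 1.58% and 1.515% at D10. Some counts are uncertain because transcripts share sequence with other genes. Of the 100-base windows of its transcripts, Pgk1 shares 51.7% with other genes, Pgam1 33.9%, Bnip3 24.6%, Eno1 20.4%, Higd1a 19.9%, Bnip3l 14.0%, Pkm 12.3%, and Ankrd37 10.8% with its neighbour Lrp2bp. Slc2a1 and Slc2a3 share 0.158% and 0.164%. Aldoa has 2 gene identifiers in the table, and its values are those of the one with nearly all counts.

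**Figure D1:**
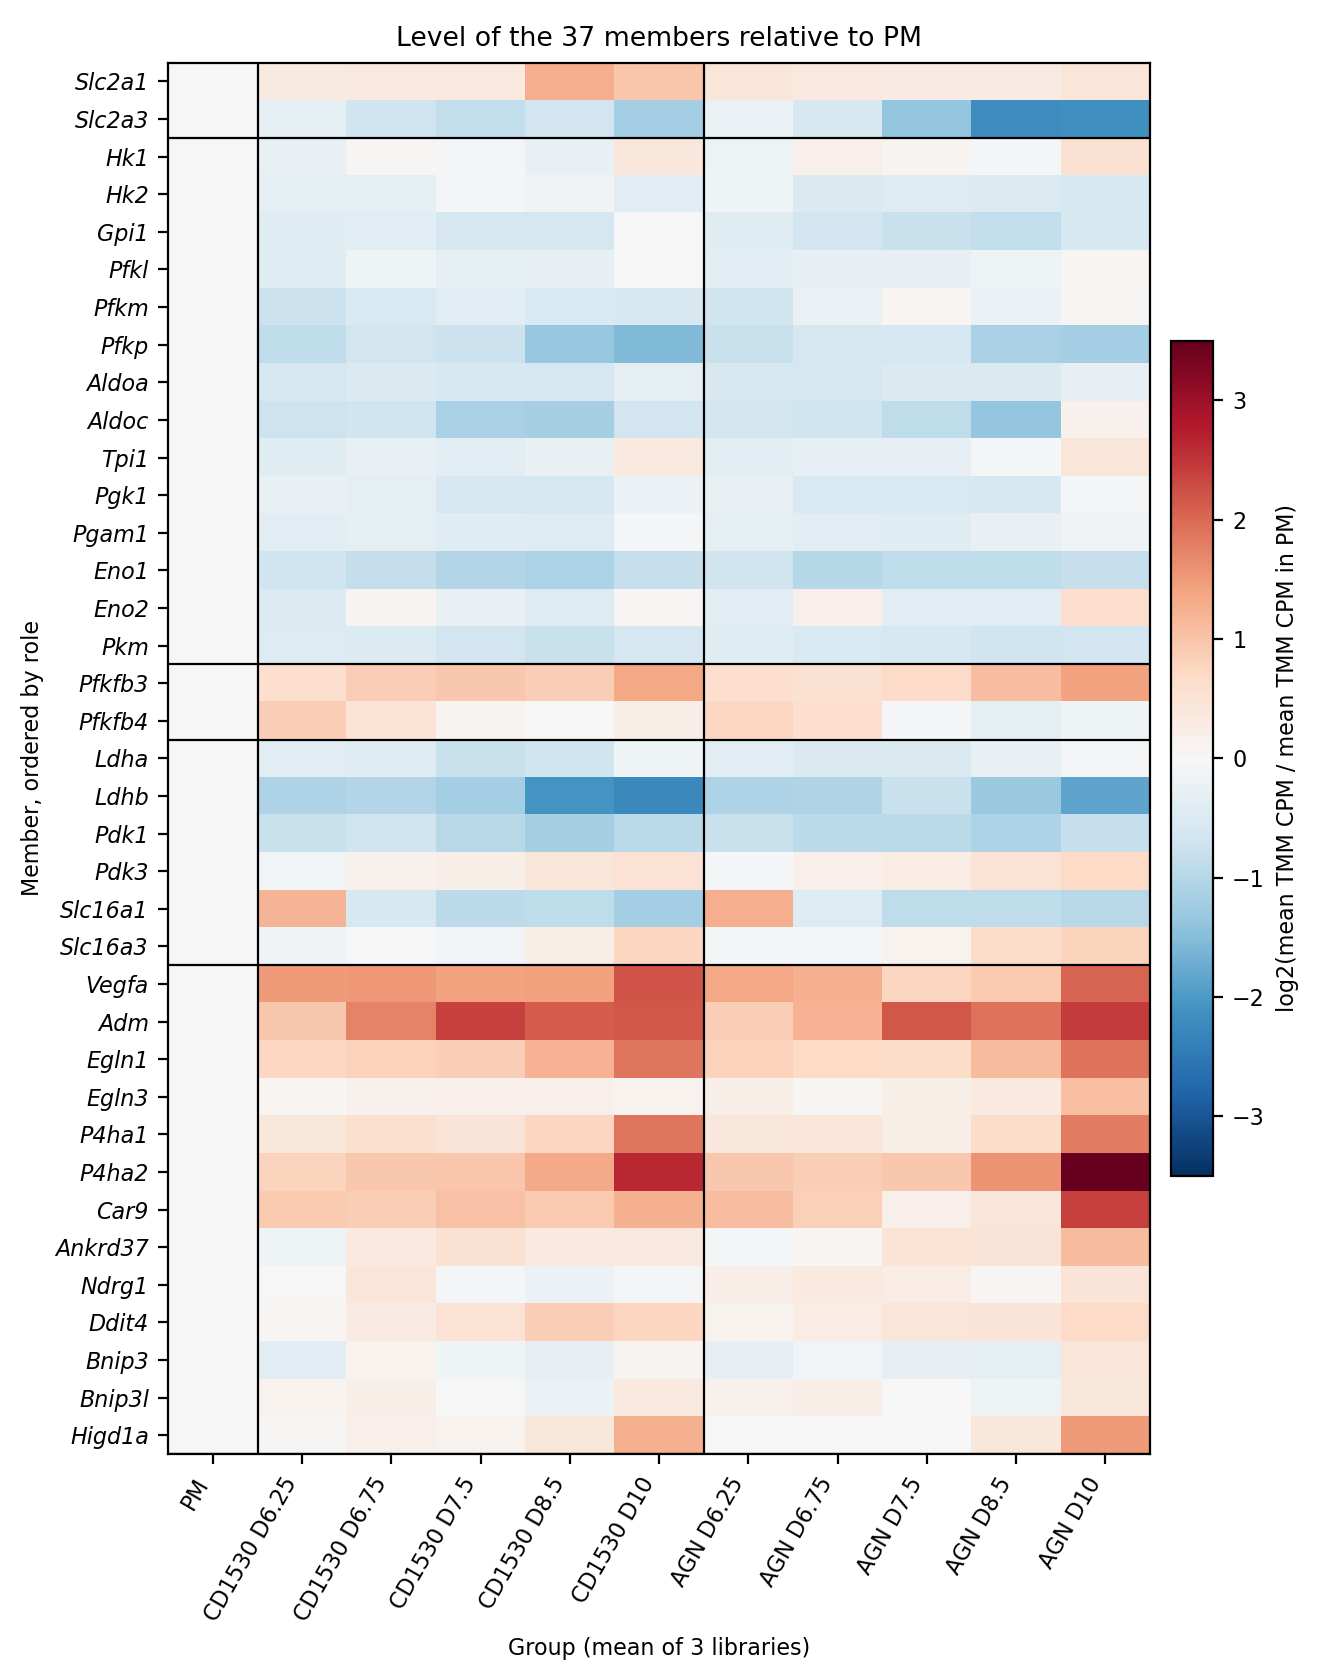
Colour gives the log2 ratio of each group's mean TMM CPM (3 libraries) to the mean in PM for the 37 members (rows, ordered by role: transporters, enzymes, PFKFB regulators, lactate and pyruvate genes, hypoxia response genes) in the 11 groups (columns). All 14 enzymes are below PM in both arms at D6.25, whereas P4ha2, Adm, Vegfa, Egln1 and P4ha1 are above it. P4ha2, Vegfa, Egln1 and P4ha1 are darkest at D10.

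The first comparison asked how the genes changed between PM and D6.25, the earliest point of induction. All 14 genes of the glycolytic enzymes fell in both arms, while hypoxia response genes such as Vegfa, Car9, Adm and P4ha2 rose. The fall of Eno2 in AGN was not called without AGN D6.25 replicate 2, where it was -0.30. In CD1530, 11 members were called higher than in PM, against 34.5% of all genes, and 20 lower, against 33.3%. In AGN, 14 were higher against 35% of all genes and 19 lower against 33.1%. Both arms share the same 3 PM libraries, so the agreement between them is not independent. The median log2 change of the 14 enzymes was -0.44 in CD1530 and -0.40 in AGN, that of the 13 hypoxia response genes 0.12 and 0.22, and that of all genes 0.00 and 0.00. Called higher were 7 of those 13 genes with CD1530 and 10 with AGN. The single gene called lower, in both arms, was the mitophagy gene Bnip3, at 119.6 CPM in PM and 91.3 and 98.8 at D6.25.

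Between D6.25 and D10 many members turned upward again. The step from D6.25 to D6.75, taken as the mean of both arms, had 16 members higher (31.2% of all genes) and 9 lower (25.5%). The step to D7.5 had 7 higher (21.3%) and 16 lower (20.4%), and the step to D8.5 had 14 higher (24.8%) and 12 lower (24.6%), a split that became 11 and 18 when libraries were scaled by their totals alone. Between D8.5 and D10 all 37 members were called, 31 higher against 33% of all genes and 6 lower against 34.6%, and the 13 hypoxia response genes were all among the higher ones. These calls are on the mean of both arms: in CD1530 alone Egln3 went from 117 to 112 CPM, Ankrd37 from 8.04 to 7.9 and Ddit4 from 427 to 395. The median log2 change of the 13 genes in that step was 0.58, the 14 enzymes' 0.26 and that of all genes -0.02. The smallest of these rises was that of Ddit4, 0.06 ± 0.025, which was lost under 11 of the alternatives tried. It went to -0.04 with scaling by library totals, and to 0.05, not called, without AGN D10 replicate 3. Scaling by library totals moved the median gene by -0.117 in this step. Pkm (0.01), Pfkm (0.0) and Pdk3 (0.05) were then not called either. The call of Pfkfb4 was lost under 8 alternatives, that scaling among them. Markers moved in the same step. Of 8 tendon markers 7 were higher, and their sum was 10925 to 11432 CPM at D8.5 against 20284 to 21083 at D10 in CD1530, and 14326 to 14680.3 against 27603 to 29038 in AGN. Of 6 pluripotency markers 5 were lower, with a sum of 611 to 625 CPM at D8.5 against 226 to 232 at D10 in CD1530, and 604 to 651 against 329 to 347 in AGN. Of 8 proliferation markers 7 were lower, with a sum of 2220.4 to 2243 CPM at D8.5 against 1518 to 1544 at D10 in CD1530, and 2378 to 2430.2 against 1907 to 1961 in AGN. Their part in the result was not tested.

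From D6.25 to D10 as a whole, 23 members rose (37.2% of all genes) and 8 fell (38.2%) in CD1530, and 26 rose (36%) and 9 fell (38.6%) in AGN. P4ha2, P4ha1 and Adm were among the largest rises in both arms, and Slc16a1, Slc2a3 and Ldhb among the largest falls. Against PM, D10 had 17 members higher (43.3%) and 13 lower (39.9%) in CD1530, and 21 higher (41.6%) and 11 lower (40.4%) in AGN. The D10 libraries depend on the scaling: with library totals in place of TMM the median gene moved by -0.188 from D6.25 to D10 in CD1530 and by -0.244 in AGN, and the split from D6.25 to D10 in CD1530 became 19 higher and 12 lower, and that of AGN D10 against PM 20 higher and 16 lower. Of the 13 hypoxia response genes, 10 rose from D6.25 to D10 in CD1530 and 13 in AGN, and no gene was called lower. With scaling by library totals the rise of Bnip3l was 0.04 in CD1530 and 0.03 in AGN and that of Ndrg1 in AGN 0.02, and these were not called.

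The glucose transporters held the largest differences in favour of CD1530 at D8.5 and D10. Coordinates are given on GRCm38 from GENCODE M21. Slc2a1 encodes GLUT1, the transporter of basal glucose uptake, and Slc2a3 encodes GLUT3, a high-affinity transporter (ENSMUSG00000028645, chr4:119108711-119137983, plus strand, and ENSMUSG00000003153, chr6:122727809-122801640, minus strand). Slc2a1 levels were 591, 603 and 549.6 CPM in the 3 PM libraries, and at D6.25 710.2, 740.3 and 717 in CD1530 and 774, 774 and 784 in AGN. In CD1530 they were 756, 749 and 715 at D6.75, then 744, 759 and 716 at D7.5, then 1427, 1389 and 1405 at D8.5 and finally 1132, 1169.6 and 1132 at D10. In AGN they were 766, 708 and 751 at D6.75, then 719, 703 and 706 at D7.5, then 710.0, 708 and 714 at D8.5 and finally 789, 778 and 762 at D10. All libraries of both arms were above PM. The AGN libraries were above those of CD1530 at D6.25, the arms overlapped at D6.75 and D7.5, and CD1530 then stood above AGN with no overlap on the last days, D8.5 and D10. CD1530 exceeded AGN 1.98-fold at D8.5, a log2 difference of 0.99 ± 0.033 (adjusted p = 5.35e-26), and 1.47-fold at D10, 0.56 ± 0.033 (adjusted p = 5.54e-18). At D7.5 the difference was 0.06 ± 0.033 and was not called.

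Slc2a3 fell over the same days. Its levels were 1534, 1467 and 1471 CPM in PM, and at D6.25 1153, 1175 and 1198 in CD1530 and 1253, 1260.0 and 1277 in AGN. In CD1530 they went on to 863, 918 and 958 at D6.75, then 834, 821 and 820.2 at D7.5, then 943, 927 and 939.5 at D8.5 and finally 656, 656 and 655 at D10. In AGN they went on to 994, 1001 and 1035 at D6.75, then 567, 572 and 566 at D7.5, then 329, 317 and 321 at D8.5 and finally 335, 341 and 334 at D10. From D7.5 on every CD1530 library was above every AGN library. The log2 difference between the arms was 0.54 ± 0.031 (adjusted p = 6.15e-18) at D7.5, 1.54 ± 0.031 (adjusted p = 9.36e-34) at D8.5 and 0.96 ± 0.031 (adjusted p = 7.42e-27) at D10, which are 1.45-, 2.9- and 1.95-fold. At D6.75 the sign was opposite, -0.15 ± 0.03 (adjusted p = 0.000381), with AGN above CD1530, and this was not called when the groups of D6.75 were fitted alone. From D6.25 to D10 the log2 change of Slc2a3 was -0.84 ± 0.031 in CD1530 and -1.91 ± 0.032 in AGN. Per kilobase of gene model, which allows levels of different genes to be compared, Slc2a3 made up 55.4% ± 1.22 of the summed level of both transporters in PM and 21.7% ± 0.309 and 17.3% ± 0.252 in CD1530 and AGN at D10.

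**Figure D2:**
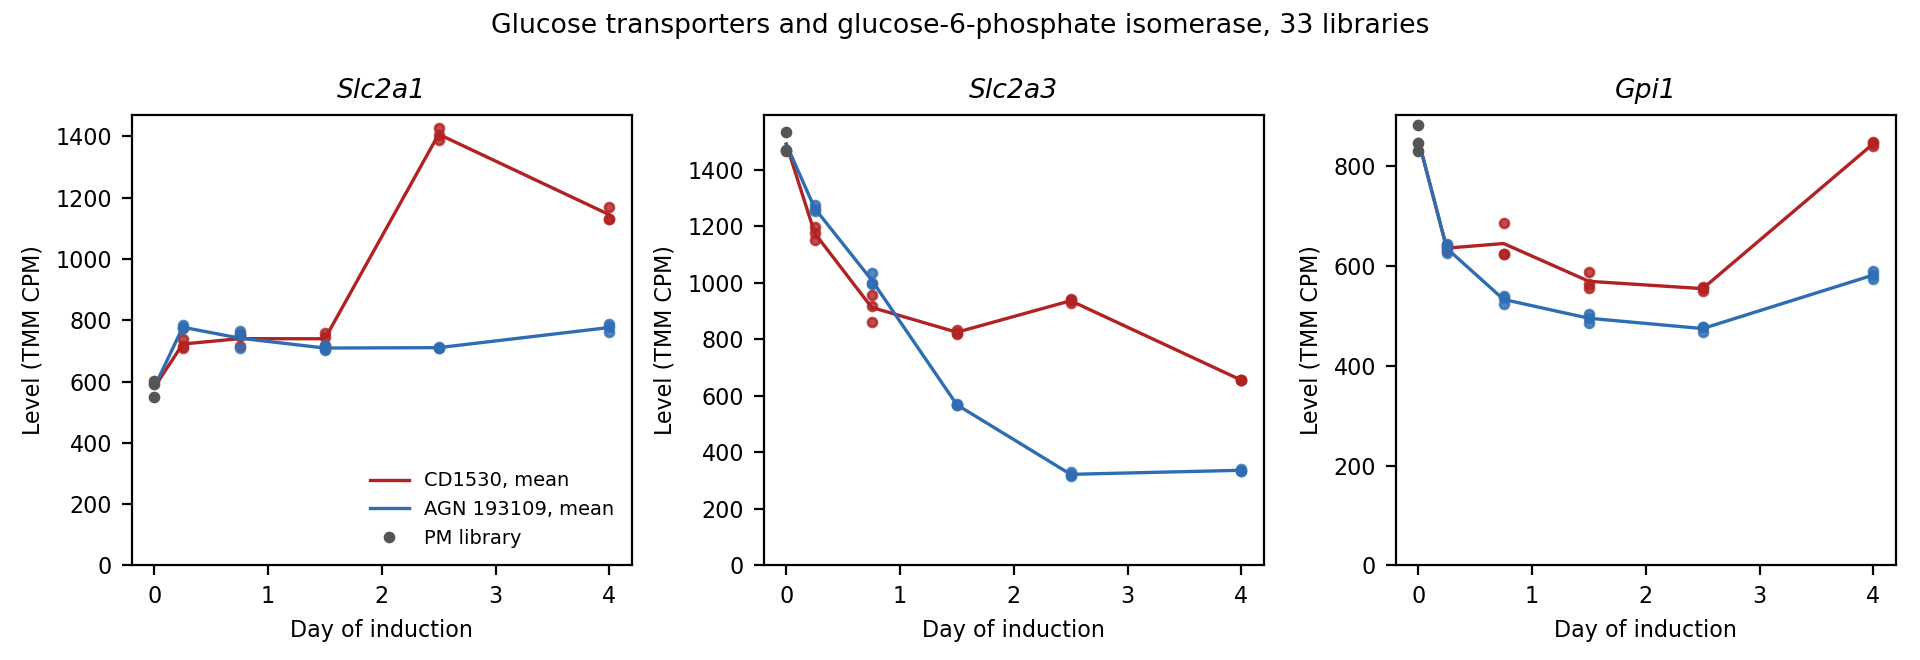
Level (TMM CPM, linear axis from 0) of Slc2a1, Slc2a3 and Gpi1 against day of induction, with points for single libraries (grey, PM; red, CD1530; blue, AGN 193109) and lines through group means. At day 2.5 (D8.5) the Slc2a1 means are 1407 in CD1530 and 711 in AGN, and the Slc2a3 means 936 and 322.

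Among the glycolytic enzymes, Gpi1 had the largest difference in favour of CD1530 at D10. Gpi1 encodes glucose-6-phosphate isomerase, which turns the product of hexokinase into fructose 6-phosphate. Its levels were 846, 882 and 830.3 CPM in PM, and at D6.25 635, 641 and 630.2 in CD1530 and 637, 643 and 625 in AGN. The CD1530 cultures had 686, 624 and 624 at D6.75, then 588, 564 and 555 at D7.5, then 556, 558 and 549 at D8.5 and finally 840.4, 846 and 847 at D10. The AGN cultures had 539, 524 and 535 at D6.75, then 495, 486 and 504 at D7.5, then 468, 478 and 477 at D8.5 and finally 589.6, 581 and 574 at D10. The arms did not overlap at D6.75 or at any later point. The log2 difference was 0.27 ± 0.032 (adjusted p = 9.48e-09) at D6.75 and 0.54 ± 0.032 (adjusted p = 6.96e-18) at D10, a 1.45-fold excess in CD1530. Hk2, the inducible hexokinase that starts the route, was also higher in CD1530 at D6.75 (0.19 ± 0.045), D7.5 (0.39 ± 0.045), D8.5 (0.37 ± 0.045) and again D10 (0.19 ± 0.045), with means of 299 ± 8.11 against 228 ± 5.51 CPM at D7.5. Its call at D6.75 was lost with only the groups compared in edgeR (0.2, adjusted p = 0.0915).

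Other isoenzymes were higher in AGN. Hk1, the constitutive hexokinase, had 141, 145 and 135 CPM in PM, and at D6.25 112, 117 and 119 in CD1530 and 125, 122 and 125 in AGN. Later CD1530 values were 135, 146 and 147 at D6.75, then 138, 143 and 128 at D7.5, then 122, 119.9 and 113 at D8.5 and finally 191, 185 and 181 at D10. Later AGN values were 169.7, 152 and 157 at D6.75, then 148, 156 and 150.2 at D7.5, then 140.1, 135 and 135 at D8.5 and finally 209, 209 and 195 at D10. Every AGN library was above every CD1530 library at all 5 points. The fitted difference was at most 1.15-fold and was called from D6.75 on, from -0.14 to -0.21 on the log2 scale. The call at D6.75 did not hold without AGN D6.75 replicate 1, where the difference was -0.12, and that at D7.5 did not hold without CD1530 D7.5 replicate 3, where it was -0.11. Both arms rose above PM by D10, by 0.41 ± 0.044 in CD1530 and 0.54 ± 0.044 in AGN.

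Pfkm, the muscle-type subunit of phosphofructokinase, which commits sugar to glycolysis, had 85.9, 87.1 and 80.5 CPM in PM, and at D6.25 50.5, 49.6 and 50.6 in CD1530 and 51.9, 50.6 and 53.2 in AGN. With CD1530 they had 60.3, 55.6 and 60.5 at D6.75, then 66.3, 66.4 and 65.2 at D7.5, then 59.3, 56.7 and 59.8 at D8.5 and finally 58.5, 58.7 and 54.7 at D10. With AGN they had 73.9, 69.3 and 72 at D6.75, then 87.9, 86.7 and 88.9 at D7.5, then 75.4, 73 and 73.2 at D8.5 and finally 85.2, 89.8 and 86 at D10. At D10 the AGN libraries overlapped PM and the CD1530 libraries were below it. D10 against PM was -0.56 ± 0.043 (adjusted p = 2.67e-15) in CD1530 and 0.04 ± 0.042, not called, in AGN, where scaling by library totals gave -0.11 (adjusted p = 0.017). The difference between the arms at D10 was -0.60 ± 0.044 (adjusted p = 3.16e-15), and the change from D6.25 to D10 differed between them by -0.55 ± 0.062 (adjusted p = 1.43e-09). Pfkp, the platelet-type subunit, had 364, 360.4 and 366 CPM in PM, and at D6.25 203, 193 and 198 in CD1530 and 212, 209.9 and 208 in AGN. Under CD1530 it was 211, 248 and 236 at D6.75, then 212, 217 and 218 at D7.5, then 144, 144 and 148 at D8.5 and finally 130.2, 120.1 and 122 at D10. Under AGN it was 247, 236 and 239.6 at D6.75, then 243, 239 and 225 at D7.5, then 173, 164 and 163 at D8.5 and finally 163, 164 and 150.2 at D10. Every induced library was below every PM library, and D10 against PM was -1.55 ± 0.043 in CD1530 and -1.19 ± 0.043 in AGN. Pfkl, the liver-type subunit, was at 536 CPM in PM, 399.8 and 418 at D6.25, and 536 and 561 at D10.

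Aldoc, a second aldolase gene, was the enzyme with the largest excess in AGN at D10. It had 57.8 ± 3.57 CPM in PM, 34.9 ± 0.278 and 37 ± 1.53 in CD1530 and AGN at D6.25, 25.7 ± 1.75 and 22.5 ± 1.66 at D8.5, then 36.3 ± 2.91 and 63.8 ± 3.34 at D10. The log2 difference at D10 was -0.81 ± 0.062 (adjusted p = 1.43e-14), with no overlap. Eno2, the neuronal enolase gene, showed the same order at a lower level, 13.6 ± 1.29 against 20.1 ± 1.11 CPM, a difference of -0.56 ± 0.13 (adjusted p = 0.000448). Several enzymes were not called between the arms at D10. Aldoa had 2115 ± 45.4 and 2185 ± 31.5 CPM, Pkm, the pyruvate kinase gene, 3157 ± 16.3 and 3021 ± 102, Eno1 1223 ± 30.8 and 1224 ± 37.5, Tpi1 949 ± 22.8 and 1000.2 ± 32.1 and Pgam1 162 ± 2.14 and 156 ± 3.64, with log2 differences from -0.08 for Tpi1 to 0.06 for Pgam1. The libraries of Tpi1, Pkm and Pgam1 did not overlap between the arms. Tpi1 was called with DESeq2 and with its size factors (-0.09), and Pgam1 with scaling by library totals (0.09). Pgk1, which makes the first ATP of the route, was called at -0.17 ± 0.048. Of the 14 enzymes, 2 were called higher in CD1530 at D10 (22.7% of all genes), 6 lower (24%) and 6 not called. Gpi1 and Hk2 were the higher ones.

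The fall from PM to D6.25 ran through the whole route, with the largest changes for Pfkp (-0.88 ± 0.042 in CD1530 and -0.79 ± 0.042 in AGN), Pfkm (-0.75 ± 0.043 and -0.70 ± 0.043), Aldoc (-0.73 ± 0.061 and -0.64 ± 0.061) and Eno1 (-0.71 ± 0.039 and -0.69 ± 0.039), and the smallest for Hk1, Hk2 and Pgk1. Pkm went from 4775 ± 92.6 to 3476 ± 58.2 and 3578 ± 27.8 CPM, and Aldoa from 2691 ± 106 to 1797 ± 41.3 and 1837 ± 33.1. Gapdh, which is outside the set and whose transcripts share 20.9% of windows with 86 other genes, had 37.6 ± 3.54 CPM in PM and 25.1 ± 0.294 and 26.8 ± 1.77 at D6.25. At D10 Tpi1 was above PM in both arms (0.35 ± 0.037 and 0.42 ± 0.037), while Eno1 (-0.80 ± 0.039 and -0.80 ± 0.039), Pkm (-0.60 ± 0.03 and -0.66 ± 0.03) and Aldoa (-0.35 ± 0.036 and -0.30 ± 0.036) were below it. Markers of other states moved with the fall at D6.25. Of 6 pluripotency markers, 6 fell in CD1530 and 6 in AGN, and their summed level was 2486 to 2509 CPM over the PM libraries, 1184 to 1222 in CD1530 and 1167 to 1201 in AGN. Over all genes, 33.3% fell in CD1530 and 33.1% in AGN. No pluripotency or proliferation marker was at 0 in any group. Of 8 proliferation markers, 8 and 7 fell, and the sums were 3003 to 3072, 2043 to 2066 and 2103 to 2117 CPM. Their part in the result was not tested.

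Within each step of the route, the balance between isoenzymes also shifted, as read per kilobase of gene model. Hk1 made up 23.8% ± 0.418 of the hexokinase level in PM and 35% ± 1.03 and 40.3% ± 1.45 in CD1530 and AGN at D10. Pfkp made up 20.4% ± 0.619 of the phosphofructokinase level in PM and 8.68% ± 0.425 and 9.73% ± 0.301 at D10, Pfkl being the largest in every group with 60.5% ± 0.696 in PM. Aldoc stayed a minor part of aldolase, 1.88% ± 0.0639 in PM and 2.54% ± 0.132 in AGN at D10, and so did Eno2 within enolase, 0.704% ± 0.0205 and 1.84% ± 0.152. Ldhb, the lactate dehydrogenase subunit of oxidative tissues, made up 28.7% ± 0.24 of the lactate dehydrogenase level in PM and 8.49% ± 0.128 and 10.5% ± 0.176 at D10. Each level sums only the members of its step, and the length used is that of all annotated exons of a gene. The enolase level leaves out Eno1b, which had 214258 counts over all libraries and shares 74.7% of its windows with other genes. The shares depend on these choices, are descriptions and were not tested.

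**Figure D3:**
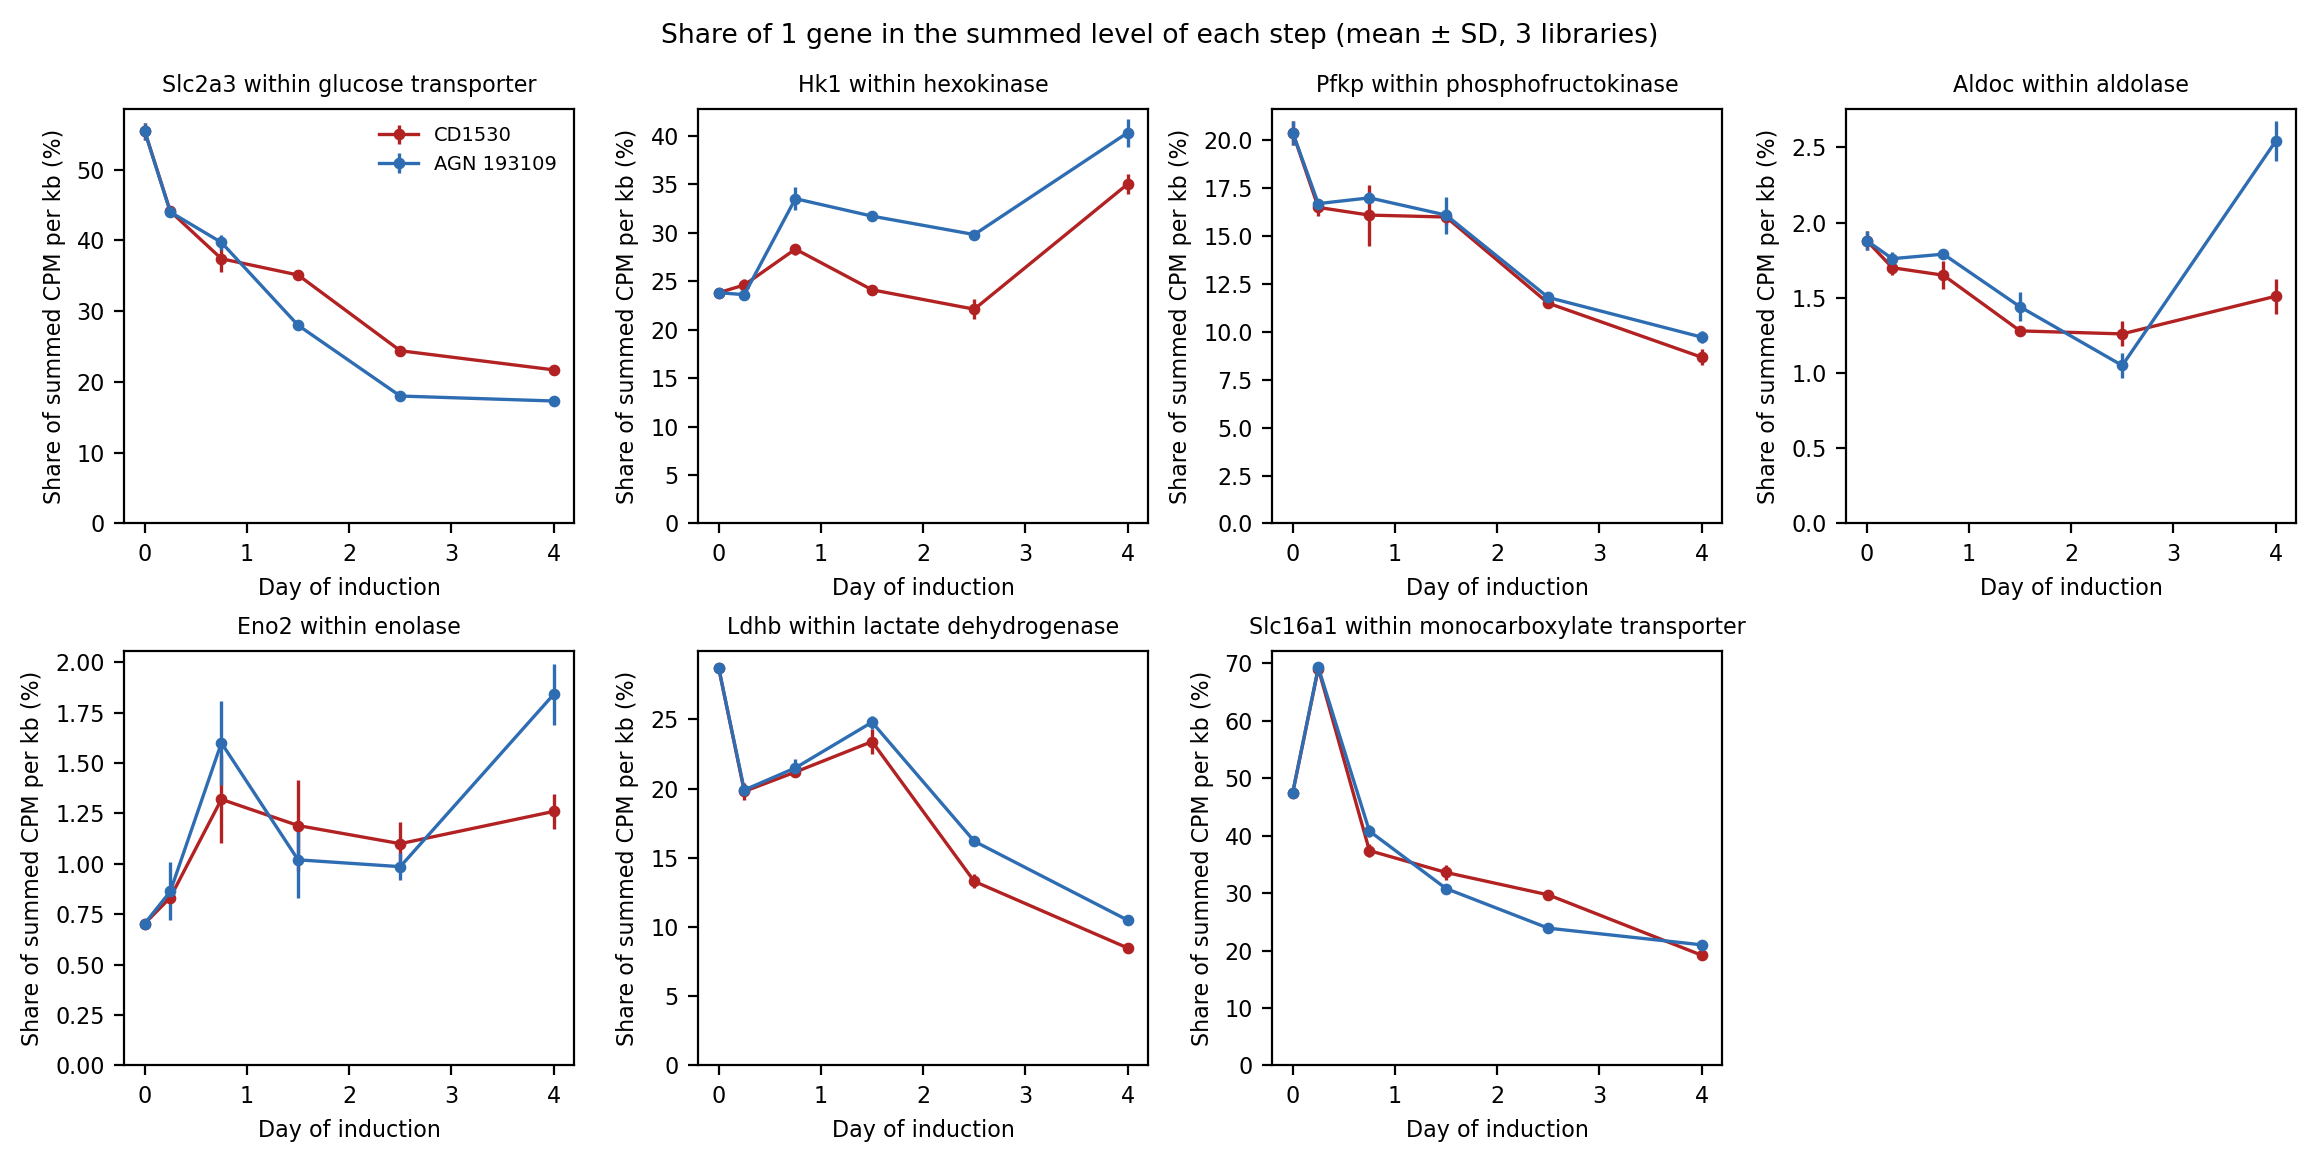
Share (percent) that 1 gene takes of the summed TMM CPM per kilobase of the members of its step, against day of induction, mean ± SD of 3 libraries, with both lines starting from the same PM group. Slc2a3, Pfkp and Ldhb lose share in both arms, Hk1 gains it, and Slc16a1 peaks at day 0.25.

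The PFKFB enzymes make and break fructose 2,6-bisphosphate, the strongest activator of phosphofructokinase. Pfkfb3, the form with the highest kinase activity, had 50.9, 48.8 and 50.1 CPM in PM, and at D6.25 73, 76.4 and 76.6 in CD1530 and 73.7, 74.1 and 75.8 in AGN. CD1530 cultures measured 85.2, 99.7 and 89.7 at D6.75, then 93.4, 97.6 and 97.4 at D7.5, then 86.7, 94.2 and 93.3 at D8.5 and finally 128, 126 and 128 at D10. AGN cultures measured 78.2, 70.6 and 70.3 at D6.75, then 82.8, 80.7 and 75 at D7.5, then 104, 104 and 106 at D8.5 and finally 130.0, 133 and 132 at D10. The order of the arms changed, with CD1530 higher at D6.75 (0.32 ± 0.047, adjusted p = 1.01e-06) and D7.5 (0.28 ± 0.047) and AGN higher at D8.5 (-0.20 ± 0.047, adjusted p = 0.000636), none of them overlapping. Both arms were above PM at D10, by 2.55- and 2.64-fold, and not called apart. Pfkfb4 was low, with 6.7 ± 0.677 CPM in PM, 12.2 ± 0.503 and 11 ± 1.16 at D6.25 and 7.78 ± 0.969 and 5.99 ± 0.184 at D10. Its rise at D6.25 (0.87 ± 0.11 and 0.71 ± 0.11) was followed by a fall to D10 (-0.65 ± 0.11 and -0.87 ± 0.12).

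The lactate and pyruvate genes held the sharpest change in time. Slc16a1 encodes MCT1, a proton-coupled transporter of lactate and pyruvate (ENSMUSG00000032902, chr3:104638668-104658462, plus strand). Its levels were 206, 207 and 202 CPM in PM, and at D6.25 466, 466 and 469.7 in CD1530 and 493, 479.8 and 499 in AGN. In the tendon arm it was 141, 132 and 141 at D6.75, then 106, 109 and 108 at D7.5, then 111, 108 and 113 at D8.5 and finally 90.8, 91.8 and 86.5 at D10. In the fibrocartilage arm it was 147, 145 and 155 at D6.75, then 109, 110.3 and 110.0 at D7.5, then 109.9, 111 and 113 at D8.5 and finally 109.8, 99.5 and 102 at D10. All 6 libraries at D6.25 were above all 3 PM libraries, and all 24 later ones below them. D6.25 against PM was 1.19 ± 0.035 (adjusted p = 8.79e-29) in CD1530 and 1.26 ± 0.035 (adjusted p = 1.38e-29) in AGN, a 2.28- and 2.39-fold rise. The next step, D6.25 to D6.75, was -1.74 ± 0.025 (adjusted p = 6.64e-39) over both arms, a 3.33-fold fall. Slc16a3, which encodes the lactate exporter MCT4 of glycolytic cells, moved the other way over the whole course, from 272 ± 2.06 CPM in PM to 454 ± 11.3 and 469.6 ± 10.7 at D10 (0.74 ± 0.037 and 0.79 ± 0.037). Per kilobase, Slc16a1 took 47.5% ± 0.181 of the summed level of both transporters in PM, 69.1% ± 0.479 and 69.3% ± 0.38 at D6.25 and 19.2% ± 0.152 and 21% ± 0.477 at D10.

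Ldhb showed the largest fall from PM of any member at D6.25 in both arms, and at D10 in CD1530. Its levels were 379.6, 413 and 383 CPM in PM, and at D6.25 196, 180.4 and 181 in CD1530 and 184, 189 and 187 in AGN. CD1530 levels were 209, 184 and 189 at D6.75, then 174, 165 and 177 at D7.5, then 88.9, 93.7 and 93.8 at D8.5 and finally 81.9, 81.3 and 80.9 at D10. AGN levels were 189, 183 and 199 at D6.75, then 224, 228 and 229.5 at D7.5, then 157, 164 and 155 at D8.5 and finally 111, 109 and 109 at D10. No induced library reached the PM range, and CD1530 was below AGN without overlap from D7.5. D10 against PM was -2.27 ± 0.044 (adjusted p = 7.59e-36) in CD1530 and -1.84 ± 0.044 (adjusted p = 6.89e-33) in AGN, falls of 4.82- and 3.58-fold, and the arms differed by -0.79 ± 0.044 at D8.5 and -0.43 ± 0.046 at D10. Ldha, the subunit of glycolytic tissues, fell less, from 2056 ± 73.5 CPM to 1589 ± 23.6 and 1590.4 ± 11 at D6.25, and stood at 1850.4 ± 23 and 1971 ± 44.7 at D10. It was lower in CD1530 at D7.5 (-0.29 ± 0.034) and D8.5 (-0.45 ± 0.034).

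Pdk1 encodes a kinase that switches off pyruvate dehydrogenase and is a classical HIF target. Its levels were 327, 330.3 and 324 CPM in PM, and at D6.25 192, 187 and 189 in CD1530 and 186, 190.2 and 194 in AGN. In CD1530 it reached 196, 202 and 202 at D6.75, then 164, 168 and 169 at D7.5, then 150.0, 149.8 and 136 at D8.5 and finally 171, 164 and 171 at D10. In AGN it reached 170.1, 175 and 172 at D6.75, then 168, 169 and 169.8 at D7.5, then 151, 161 and 153 at D8.5 and finally 179, 187 and 195 at D10. All induced libraries were below PM, by -0.79 ± 0.036 and -0.78 ± 0.036 at D6.25 and -0.96 ± 0.036 and -0.81 ± 0.036 at D10. Pdk3, another kinase of that family, rose instead, from 45.2 ± 1.7 CPM in PM to 64 ± 2.1 and 73.8 ± 1.69 at D10.

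Among the hypoxia response genes, Vegfa had the largest rise at D6.25. Vegfa, the vascular endothelial growth factor, had 43.7, 40.5 and 41.3 CPM in PM, and at D6.25 117, 119 and 119 in CD1530 and 111, 102 and 108 in AGN. The tendon arm had 116, 126 and 116 at D6.75, then 108, 110.5 and 112 at D7.5, then 118, 118 and 107 at D8.5 and finally 199.9, 194 and 180.3 at D10. The fibrocartilage arm had 107, 102 and 90 at D6.75, then 69.4, 70 and 70.8 at D7.5, then 79.2, 77.7 and 81 at D8.5 and finally 173, 169 and 169 at D10. Every induced library was above PM, and at each of the 5 points the CD1530 libraries were above those of AGN. The rise at D6.25 was 1.50 ± 0.052 (adjusted p = 2.34e-26) in CD1530 and 1.36 ± 0.052 (adjusted p = 9.91e-25) in AGN, or 2.83- and 2.56-fold. Between the arms Vegfa was called with CD1530 above AGN at D6.75 (0.26 ± 0.048, adjusted p = 8.44e-05), a call lost with only the groups compared (0.27, adjusted p = 0.0603), then at D7.5 (0.65 ± 0.05, adjusted p = 4.68e-14), D8.5 (0.53 ± 0.049, adjusted p = 7.26e-12) and finally D10 (0.17 ± 0.047, adjusted p = 0.00273).

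Adm encodes the vasodilator peptide adrenomedullin. It had 9.43, 9.3 and 7.54 CPM in PM, and at D6.25 16.4, 17.5 and 16.7 in CD1530 and 14.9, 15.7 and 17.6 in AGN. With CD1530 it was 30.5, 31.8 and 25.1 at D6.75, then 46.4, 47.5 and 42.8 at D7.5, then 37.2, 38.4 and 38.1 at D8.5 and finally 38, 44.5 and 35.8 at D10. With AGN it was 24.4, 18 and 18.7 at D6.75, then 41.2, 37.6 and 38.8 at D7.5, then 33, 34.1 and 31.9 at D8.5 and finally 46, 48.3 and 49 at D10. Adm had the largest difference in favour of CD1530 at D6.75, 0.51 ± 0.091 (adjusted p = 6.16e-05), and was higher in AGN at D10, -0.28 ± 0.084 (adjusted p = 0.00675). The D10 call did not hold without CD1530 D10 replicate 3, where the difference was -0.21 (adjusted p = 0.0595). D10 against PM was 4.48-fold in CD1530 and 5.43-fold in AGN.

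The genes of collagen prolyl 4-hydroxylase rose at D6.25 and again after D7.5, most of all between D8.5 and D10. P4ha1 and P4ha2 encode catalytic subunits of the enzyme that hydroxylates proline in collagen and thereby stabilises its triple helix. P4ha1 had 201, 209 and 188 CPM in PM, and at D6.25 253, 272 and 256 in CD1530 and 266, 256 and 268 in AGN. CD1530 samples held 288, 306 and 288 at D6.75, then 277, 276 and 268 at D7.5, then 345, 328 and 336 at D8.5 and finally 711, 735 and 736 at D10. AGN samples held 275, 258 and 263 at D6.75, then 242, 229 and 216 at D7.5, then 308, 307 and 309 at D8.5 and finally 711, 703 and 674 at D10. Both arms stood above PM at every point, and the arms overlapped at D10. The step from D8.5 to D10 was 1.14 ± 0.028 (adjusted p = 1.57e-31) over both arms, 2.21-fold, and the arms differed there by 0.06 ± 0.038, which was not called here but was with scaling by library totals (0.10).

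P4ha2 had 40.7, 45.5 and 37.7 CPM in PM, and at D6.25 67.7, 77.2 and 67.9 in CD1530 and 76.5, 77.3 and 82.9 in AGN (ENSMUSG00000018906, chr11:54100095-54131665, plus strand). Tendon arm levels were 79.8, 85.7 and 73.1 at D6.75, then 80.1, 86.3 and 74.5 at D7.5, then 106, 103 and 104 at D8.5 and finally 255, 259 and 251 at D10. Fibrocartilage arm levels were 88.2, 67.1 and 69.3 at D6.75, then 83.3, 80.8 and 75.6 at D7.5, then 129, 119.6 and 119.8 at D8.5 and finally 481, 466 and 452 at D10. At D10 every AGN library was above every CD1530 library. The D8.5 to D10 step was 3.05-fold over both arms (1.61 ± 0.054, adjusted p = 4.87e-20), and D10 against PM was 6.17-fold in CD1530 and 11.3-fold in AGN, the largest change from PM of any member. The arms differed at D10 by -0.87 ± 0.073 (adjusted p = 8.43e-11), with AGN 1.83-fold above CD1530. The smaller difference at D8.5 (-0.24 ± 0.077) was not called without AGN D8.5 replicate 1, the deepest library, where it was -0.20 (adjusted p = 0.0802).

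Of the oxygen sensors, Egln3 was called apart between the arms at D10 and Egln1 was not. EGLN1 is the main prolyl hydroxylase that marks HIF-α, and EGLN3 a related enzyme that HIF itself induces. Egln3 had 101, 105 and 103 CPM in PM, and at D6.25 108, 111 and 105 in CD1530 and 121, 118 and 119 in AGN (ENSMUSG00000035105, chr12:54178981-54203860, minus strand). Under CD1530 they were 113, 118 and 110.3 at D6.75, then 117, 122 and 109 at D7.5, then 119, 117 and 114 at D8.5 and finally 112, 115 and 108 at D10. Under AGN they were 113, 102 and 102 at D6.75, then 115, 121 and 118 at D7.5, then 139, 126 and 127 at D8.5 and finally 212, 216 and 211 at D10. The 3 AGN libraries at D10 were above all the other 30. The arms differed at D10 by -0.93 ± 0.043 (adjusted p = 1.92e-21), AGN being 1.91-fold higher, and the change from D6.25 to D10 was 0.84 ± 0.043 (adjusted p = 9.68e-21) in AGN and 0.05 ± 0.044, not called, in CD1530, where scaling by library totals gave -0.12 (adjusted p = 0.0134). Egln1 rose in both arms, from 65.7 ± 4.02 CPM in PM to 240.5 ± 0.796 and 243 ± 10.2 at D10, where the arms overlapped and differed by -0.02 ± 0.043, not called.

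Car9 encodes carbonic anhydrase IX, a membrane enzyme that controls extracellular pH and is among the genes most strictly dependent on HIF (ENSMUSG00000028463, chr4:43506966-43513729, plus strand). Its counts were low, between 20 and 146 per library. It had 0.957, 1.89 and 1.56 CPM in PM, and at D6.25 2.57, 3.2 and 2.51 in CD1530 and 3.25, 2.25 and 3.8 in AGN. In CD1530 came 3.02, 2.68 and 2.26 at D6.75, then 3.16, 3.48 and 2.38 at D7.5, then 2.96, 2.39 and 2.95 at D8.5 and finally 3.59, 4.35 and 2.59 at D10. In AGN came 2.82, 2.43 and 2.57 at D6.75, then 1.16, 1.63 and 2.17 at D7.5, then 2, 2.24 and 1.69 at D8.5 and finally 7.06, 8.79 and 7.31 at D10. CD1530 was above AGN without overlap at D7.5 and D8.5, and AGN above CD1530 without overlap at D10. The log2 difference was 0.84 ± 0.23 (adjusted p = 0.00468) at D7.5, 0.47 ± 0.22, not called, at D8.5 and -1.14 ± 0.19 (adjusted p = 2.08e-06) at D10, where AGN was 2.2-fold higher. D10 against PM was 2.39 ± 0.21 (adjusted p = 1.84e-13) in AGN and 1.25 ± 0.23 (adjusted p = 6.18e-06) in CD1530.

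The remaining hypoxia response genes were called higher at D10 than at D8.5 over the mean of both arms, although Ankrd37 and Ddit4 were not higher in CD1530 itself. Ankrd37, an ankyrin repeat gene induced by HIF, had 6.29 ± 0.765 CPM in PM, 7.9 ± 0.695 in CD1530 and 13.6 ± 1.32 in AGN at D10, a difference between arms of -0.78 ± 0.12 (adjusted p = 8.74e-07). Ndrg1, a stress-responsive gene, had 80.8 ± 3.65, 78.6 ± 8.59 and 110.1 ± 5.25, a difference of -0.49 ± 0.076 (adjusted p = 3.46e-06). The mitochondrial genes Bnip3 (119.6, 129 and 161 CPM) and Bnip3l (117, 147 and 153), which promote mitophagy, and Higd1a (45.3, 108 and 128) were each higher at D10 than at D8.5, with means above those of D8.5 in both arms. Bnip3 and Higd1a were higher in AGN at D10 (-0.32 ± 0.06 and -0.24 ± 0.057), and Bnip3l was the one member called between the arms at no time point. Ddit4, an inhibitor of mTORC1, had 234 CPM in PM and peaked at 427 ± 7.57 in CD1530 at D8.5, against 320.1 ± 7.7 in AGN (0.41 ± 0.035, adjusted p = 6.71e-13).

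**Figure D4:**
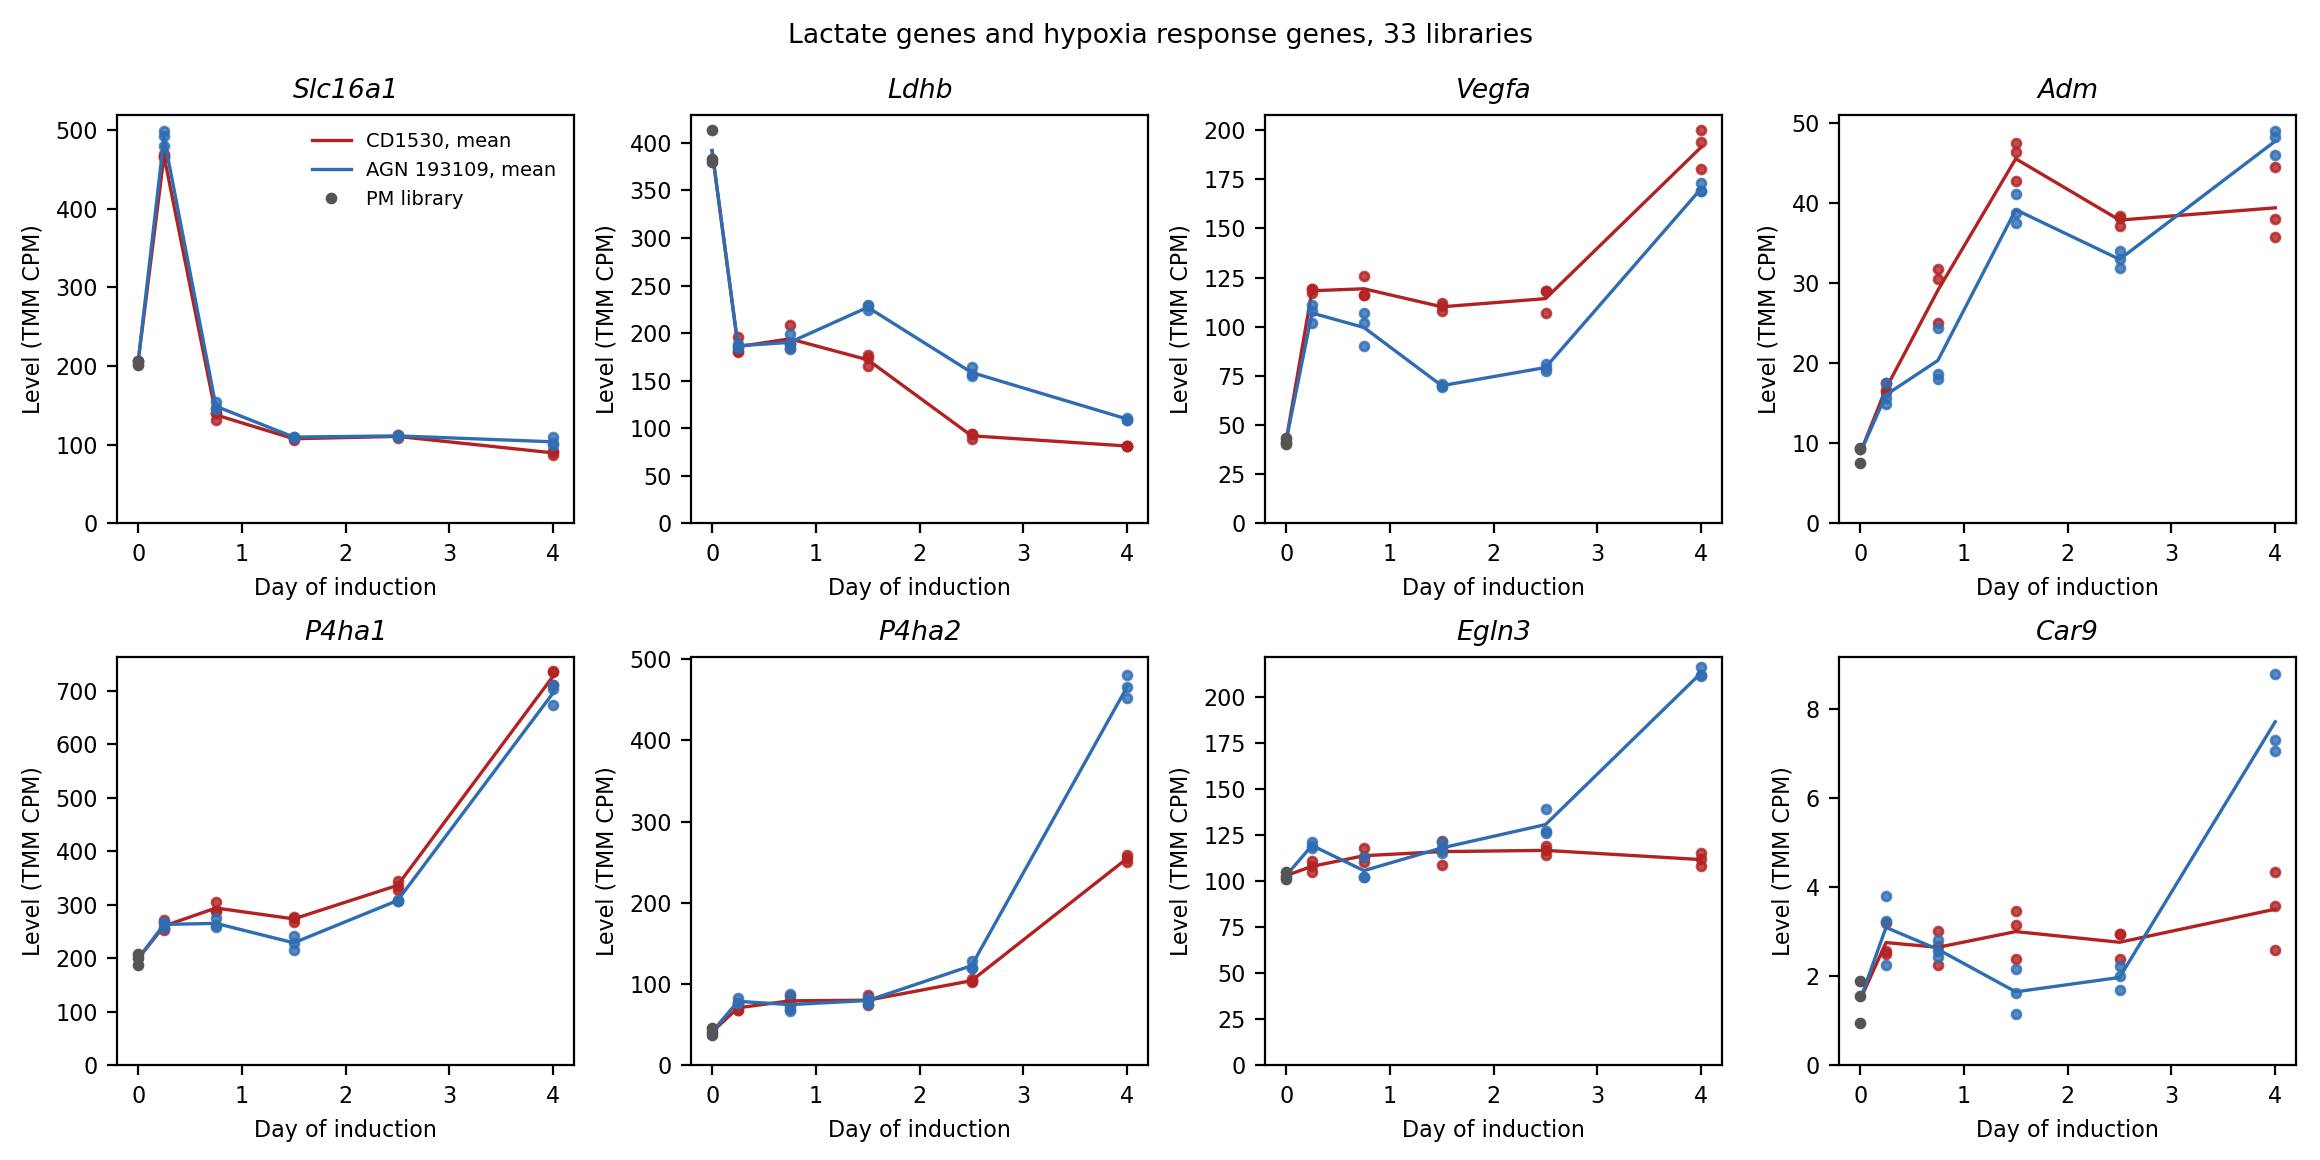
Level (TMM CPM, linear axes from 0) of 8 members against day of induction, with points for single libraries (grey, PM; red, CD1530; blue, AGN 193109) and lines through group means. Slc16a1 peaks at day 0.25 at 467 and 490.3, and P4ha2, Egln3 and Car9 lie higher in AGN at day 4, with AGN means of 466, 213 and 7.72 against 255, 112 and 3.51 in CD1530.

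The comparison of CD1530 with AGN at matched times asks where the retinoid ligand separates the arms. At D6.25, 0 members were called higher in CD1530 (1.23% of all genes) and 1 lower (0.695%), Hk2 with -0.17 ± 0.045. That call was lost, with a log2 difference of -0.12, -0.18 and -0.14, when CD1530 D6.25 replicate 1, AGN D6.25 replicate 1 and AGN D6.25 replicate 3 were left out in turn. At an unadjusted p under 0.05, edgeR gave 1 member higher and 7 lower at D6.25. The share of all genes at that threshold was not counted, so nothing is read from this split. At D6.75, 12 were higher (7.94%) and 4 lower (10%), and 5 in all remained when these groups were fitted alone. The largest differences were Adm, Pfkfb3 and Gpi1 upward and Pfkm, Hk1 and Slc2a3 downward. At D7.5, 10 were higher (15.2%) and 10 lower (11.8%). At D8.5, 9 were higher (20.4%) and 16 lower (19.6%). At D10, 6 were higher (22.7%) and 19 lower (24%), or 10 and 18 when scaled by library totals. The members' median difference went from 0.08 at D6.75 to -0.09 at D10, with -0.01 and -0.02 over all genes. Of the 37, 11 were called in both directions at different times, 8 only higher in CD1530, 17 only lower and 1 never. These classes were not counted over all genes, so they describe the members and have no share to be set against.

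**Figure D5:**
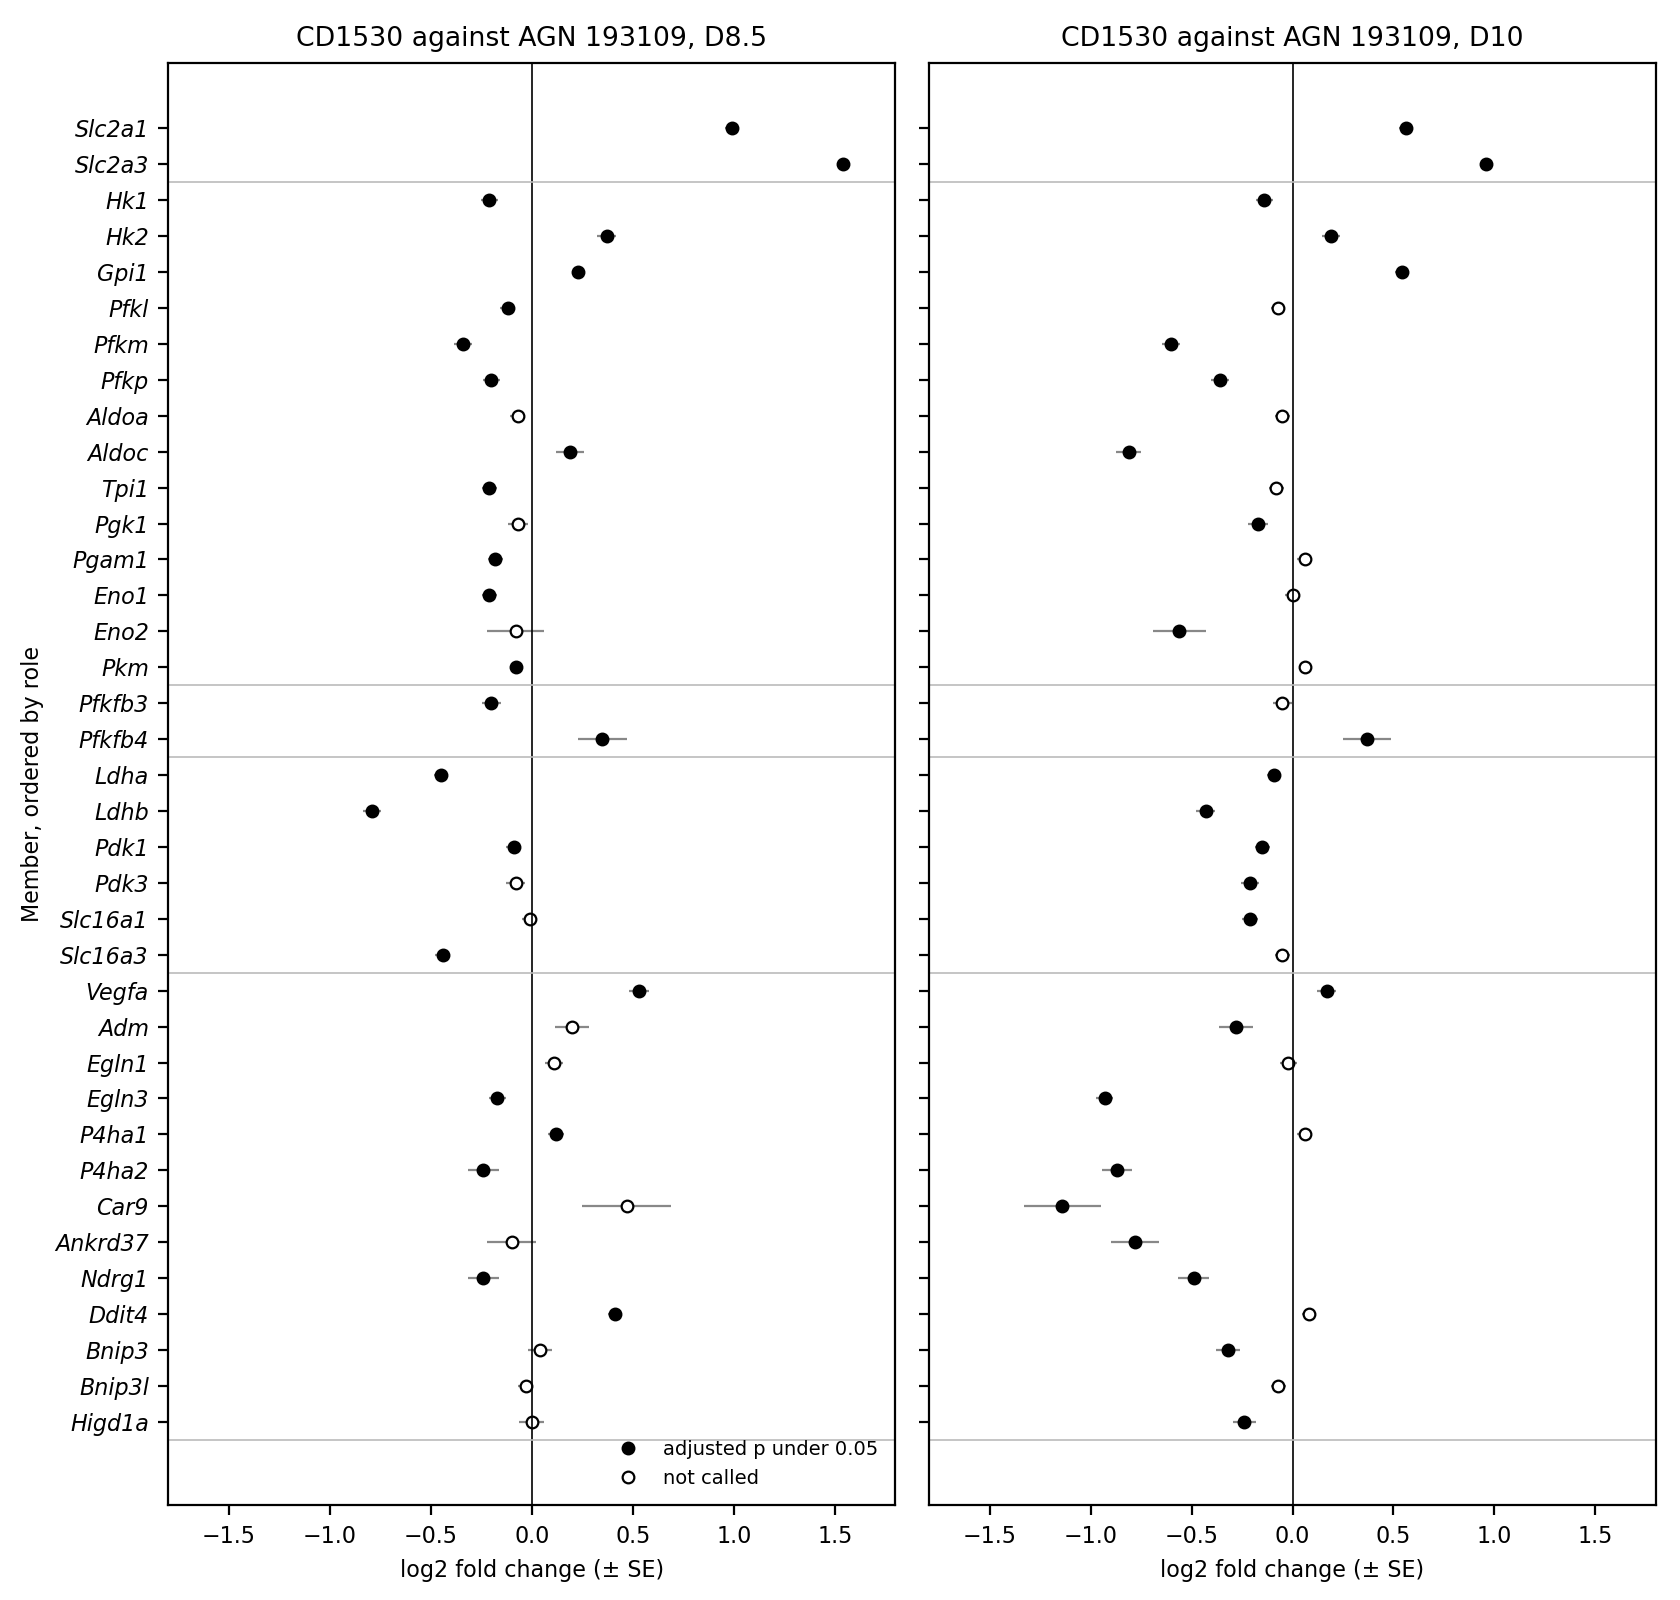
Log2 fold change of CD1530 against AGN 193109 (x axis, ± SE) for the 37 members in order of role at D8.5 (left) and D10 (right), with filled points for adjusted p under 0.05. Slc2a3 and Slc2a1 lie furthest right in both panels, and at D10 Car9, Egln3, P4ha2, Aldoc and Ankrd37 lie furthest left.

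At D10, 8 of the 13 hypoxia response genes were lower in CD1530 than in AGN (24% of all genes), Vegfa was higher (22.7%), and the median was -0.28. At D7.5 the count was the other way, with 6 higher (15.2% of all genes) and 1 lower (11.8%). Of these calls, those of Adm and Ddit4 were each lost under 7 of the alternatives tried, DESeq2 and scaling by library totals among them. The change from D6.25 to D10 itself was tested for a difference between the arms: 5 members gained more, or lost less, in CD1530 (16.5% of all genes) and 15 in AGN (16.8%), or 6 and 9 with scaling by library totals and 4 and 9 without AGN D10 replicate 3. Slc2a3 (1.07 ± 0.043), Slc2a1 (0.67 ± 0.047) and Gpi1 (0.54 ± 0.045) led in CD1530, and Car9 (-0.97 ± 0.28), Egln3 (-0.78 ± 0.061) and Aldoc (-0.73 ± 0.088) in AGN. Over all 5 time points, a joint test of the ligand by time interaction called 34 members, against 48.8% of all genes. Cartilage markers moved with these differences: 7 of 7 were lower in CD1530 at D10, with summed levels of 246 to 253 CPM against 3127 to 3262 in AGN. All 8 proliferation markers were lower in CD1530 (24% of all genes), 1518 to 1544 against 1907 to 1961, and 4 of 6 neural markers were higher (22.7%), 80.2 to 84.8 against 34.1 to 37.7. At D6.75 and D7.5, 6 and 5 of 6 endothelial markers were higher in CD1530 (7.94% and 15.2% of all genes), summing at D7.5 to 434 to 452 against 257 to 285. Of 8 tendon markers, 5 were lower in CD1530 at D10 and 1 higher, with sums of 20284 to 21083 against 27603 to 29038, and of 6 pluripotency markers 2 were lower and 3 higher, 226 to 232 against 329 to 347. Of 5 muscle markers, 4 were lower in CD1530 at D10, and so were 4 of 6 erythroid markers. The part of these cell types in the members' differences was not tested.

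Promoter sequence is shown for the members that led the difference at D10 and for Slc16a1, to place the letters a HIF complex can read beside the values. The sequences are RefSeq promoters on GRCm38.p6, the 250 bases before each transcript start, 5′ to 3′ on the gene's strand, with ACGTG or GCGTG on either strand in capitals, the core of the hypoxia response element in its usual and a variant form.
Slc2a1 (chr4:119108495-119108744, plus strand): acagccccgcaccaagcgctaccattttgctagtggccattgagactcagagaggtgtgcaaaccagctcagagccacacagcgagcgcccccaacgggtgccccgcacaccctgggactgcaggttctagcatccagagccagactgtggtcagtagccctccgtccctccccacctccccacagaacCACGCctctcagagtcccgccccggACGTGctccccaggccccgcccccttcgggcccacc
Gpi1 (chr7:34230337-34230586, minus strand): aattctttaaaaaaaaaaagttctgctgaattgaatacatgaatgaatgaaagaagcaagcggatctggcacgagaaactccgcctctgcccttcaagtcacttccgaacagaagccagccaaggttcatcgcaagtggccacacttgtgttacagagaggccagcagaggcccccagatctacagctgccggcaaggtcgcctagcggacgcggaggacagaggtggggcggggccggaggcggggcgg
P4ha2 (chr11:54100674-54100923, plus strand): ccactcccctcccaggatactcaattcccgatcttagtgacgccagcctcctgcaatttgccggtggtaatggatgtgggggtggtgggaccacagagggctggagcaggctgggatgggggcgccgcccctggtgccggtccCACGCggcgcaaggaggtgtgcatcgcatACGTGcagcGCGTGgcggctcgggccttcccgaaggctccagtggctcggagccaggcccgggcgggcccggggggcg
Egln3 (chr12:54203875-54204124, minus strand): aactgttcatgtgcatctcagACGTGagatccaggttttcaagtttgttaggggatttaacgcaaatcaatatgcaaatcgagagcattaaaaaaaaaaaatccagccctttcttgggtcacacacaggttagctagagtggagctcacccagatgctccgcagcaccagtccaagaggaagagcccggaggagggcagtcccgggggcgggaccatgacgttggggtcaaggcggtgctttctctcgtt
Car9 (chr4:43506776-43507025, plus strand): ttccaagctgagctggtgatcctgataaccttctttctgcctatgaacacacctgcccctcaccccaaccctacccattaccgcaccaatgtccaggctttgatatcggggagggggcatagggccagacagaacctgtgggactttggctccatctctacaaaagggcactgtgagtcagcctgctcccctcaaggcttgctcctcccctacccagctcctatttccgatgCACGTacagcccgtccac
Slc16a1 (chr3:104638414-104638663, plus strand): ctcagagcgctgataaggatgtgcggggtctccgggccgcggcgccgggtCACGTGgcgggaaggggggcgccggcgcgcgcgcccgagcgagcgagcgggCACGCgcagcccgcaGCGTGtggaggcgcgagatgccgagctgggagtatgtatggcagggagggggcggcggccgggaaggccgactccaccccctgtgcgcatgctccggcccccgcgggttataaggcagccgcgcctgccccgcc
No promoter sequence is shown for Slc2a3. Overlapping matches were counted as 1 place, and the search window also included the first 50 bases of the transcript. Slc2a1 and Gpi1, both higher in CD1530 at D10, had 2 places and 0. P4ha2, Egln3 and Car9, higher in AGN, had 4, 1 and 1, and Slc16a1 had 4, of which the one furthest upstream is the palindrome CACGTG, which also holds the E-box read by Myc family factors. Promoters were found for 34 of the 37 members, 48 starts in all, and 31 of the 34 had at least 1 place at some start (91.2%), against 65.4% of the 11699 genes of the count table with a promoter. By start, 81.2% of the members' promoters, 59.7% of the 14936 promoters of genes in the count table and 43.8% of the 32851 promoters in the reference held a place. A match is a string of letters and not a bound site, and both motifs hold CpG, so their frequency depends on base composition.

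The genes of the HIF machinery were read beside the members. Hif1a, the oxygen-regulated subunit, had 142 ± 1.16 CPM in PM, 185 ± 2.63 and 186 ± 0.983 at D6.25 and 158 ± 4.72 and 163 ± 4.31 at D10, so it was 0.39 ± 0.042 and 0.39 ± 0.042 above PM at D6.25, and -0.04 ± 0.042 apart at D10, not called. Its levels as RNA do not show the protein, which oxygen controls. Epas1, which encodes HIF-2α, fell from 46.9 ± 4.66 to 16.1 ± 1.39 and 16.8 ± 0.305 at D10. Hif3a, which encodes an inhibitory HIF-α, had 9.91 ± 0.422 in PM, 18.1 ± 1.13 and 19.8 ± 0.445 at D8.5, then 14.4 ± 0.431 and 48 ± 1.51 at D10, a difference of -1.74 ± 0.089 (adjusted p = 3.69e-20). Of the partners, Arnt had 98.7, 111 and 123 CPM in PM and at D10, and Arnt2 4.94, 26.6 and 22. Vhl, the ubiquitin ligase subunit that recognises hydroxylated HIF-α, rose from 23.7 ± 1.09 to 58.8 ± 1.71 and 60.9 ± 0.359 (1.31 ± 0.058 and 1.36 ± 0.058). Of the remaining hydroxylases, Hif1an went from 64.1 to 97.9 and 81.9, and Egln2 from 66.5 to 72.7 and 83. Of the 8 regulators, 2 were higher (22.7% of all genes) and 3 lower (24%) in CD1530 at D10.

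Related lists were read in the same fit. Of 20 other hypoxia-induced genes, 12 were higher and 3 lower than PM in CD1530 at D6.25, 14 and 3 in AGN, and 15 rose and 1 fell from D8.5 to D10. Between the arms at D10, 7 of the 20 were higher in CD1530 (22.7% of all genes) and 7 lower (24%). They were led by Car12, a carbonic anhydrase (4.22 against 2.49 CPM, 0.76 ± 0.2 (adjusted p = 0.00145)), and by Plod1, a collagen lysyl hydroxylase (-0.67 ± 0.045, adjusted p = 2.35e-16). Of 25 other glycolysis and pyruvate genes, 7 rose and 12 fell from PM to D6.25 in CD1530, 8 and 12 doing so in AGN, and at D10 4 were higher and 11 lower in CD1530. The extremes were Hk3, a low-level hexokinase gene (2.31 against 0.926 CPM, 1.30 ± 0.26 (adjusted p = 6.5e-05)), and Slc16a7, which encodes the monocarboxylate transporter MCT2 (0.918 against 4.59 CPM, -2.32 ± 0.27 (adjusted p = 2.4e-09)).

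Most genes of the citric acid cycle, which oxidises the carbon that glycolysis delivers, fell early as well. Of its 16 genes, 12 fell and 1 rose from PM to D6.25 under CD1530, with a median of -0.25, and 12 fell and 1 rose in AGN, with -0.24. Over all genes, 33.3% fell and 34.5% rose in CD1530, and 33.1% and 35% in AGN. From D8.5 to D10, when 31 of the 37 members rose, 11 of the 16 fell (34.6% of all genes) and 1 rose (33%), with a median of -0.14. At D10, 7 of the 16 were higher in CD1530 (22.7% of all genes) and 1 lower (24%), from Suclg2, a succinyl-CoA ligase subunit (0.29 ± 0.05), to Sdhd, a succinate dehydrogenase subunit (-0.17 ± 0.053). Of the 8 genes of the pentose phosphate pathway, which branches off at glucose 6-phosphate, 5 fell and 2 rose at D6.25 in both arms, and at D10 4 were higher and 3 lower in CD1530, from Rpia (0.24 ± 0.093) to H6pd (-0.38 ± 0.058).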

How the data were processed

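Paired-end RNA-seq libraries of 33 cultures were made with a NEB Next Ultra kit. The deposited values are raw counts per gene: the authors aligned reads to GRCm38 with STAR and counted them with featureCounts, and the annotation release, strand setting and treatment of reads with several matches are not given in the sources used here. All 17120 genes of the table passed edgeR's filter on low counts.

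The 37 members and all gene lists were chosen with earlier results of these data known. Counts were scaled by TMM and tested with edgeR 4.0.16 (limma 3.58.1, R 4.3.3), a robust quasi-likelihood F test in 1 fit of 11 group means, with Benjamini-Hochberg adjustment over all genes in each of 17 comparisons and a call at 0.05. The SE was the log2 change over the square root of F. The biological coefficient of variation was 4.68%, replicate libraries correlated at 0.99 to 0.9951, and no pair agreed within sampling noise. Scripts were tested on simulated counts. Values in every library are given for the 3 called members with the largest change in each direction in D6.25 against PM and D10 against D6.25 (called in both arms) and in CD1530 against AGN at D6.75 and D10, for other lists the called gene with the largest difference in each direction at D10, and the 8 regulators and Gapdh. Replicate numbers came from the labels. Alternatives were DESeq2 1.42.0, its size factors, library size only, other filters, a replicate block, only the groups compared, and each library left out. Promoters and shared sequence came from RefSeq and GENCODE M21 tables. p-values set each difference between groups against the spread between biological replicates, estimated from all 11 groups together.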

Additional observations from a re-analysis of the deposited data

Results flagged for a closer look

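The change from D6.25 to D10 differed between the arms for 20 members, by an interaction term in the edgeR fit. Values are log2 differences of the change, CD1530 minus AGN. They were 1.07 for Slc2a3, 0.67 for Slc2a1, 0.54 for Gpi1, 0.36 for Hk2 and 0.11 for Pkm, so that these genes gained more or lost less in CD1530. The hypoxia response genes called here had the opposite sign, with -0.97 for Car9, -0.78 for Egln3, -0.72 for P4ha2, -0.68 for Ankrd37, -0.35 for Adm and -0.25 for Higd1a. The others, Vegfa, Bnip3, Bnip3l, Egln1, P4ha1, Ndrg1 and Ddit4, were not called. Enzymes with that sign were Aldoc (-0.73), Pfkm (-0.55), Eno2 (-0.48), Pfkp (-0.27) and Pgk1 (-0.18), and of the lactate and pyruvate genes Ldhb (-0.42), Pdk3 (-0.17), Pdk1 (-0.14) and Slc16a1 (-0.14). Calls for Adm, Eno2, Higd1a, Pdk1, Pdk3, Pgk1, Pkm and Slc16a1 were lost under at least 1 alternative, and Pkm under 13.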

How the results depend on the processing

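The 418 member results are the calls of members in the 17 comparisons and the printed differences that were not called. Calls gained elsewhere under an alternative are not among them. Of the 418, 344 kept their direction and their side of the threshold under every alternative tried. With library size only, 31 calls were lost, and these turned: Aldoc in AGN D10 against PM (-0.01), Ddit4 in D10 against D8.5 (-0.04), Pfkm in AGN D10 against PM (-0.11), Egln3 in CD1530 D10 against D6.25 (-0.12) and Egln1 in CD1530 against AGN at D10 (0.02). The Egln1 difference was 0.0 with only the groups compared and ranged from -0.03 to 0.02 with each library left out, 0.02 without AGN D10 replicate 1. At D6.25 between the arms, 1 member was called; the count was 7 with only the groups compared, 3 with DESeq2 and 0 to 1 with each library left out, 0 without CD1530 D6.25 replicate 1, AGN D6.25 replicate 1 or AGN D6.25 replicate 3. At D6.75 it was 5 with only the groups compared, against 16. The 20 interaction calls from D6.25 to D10 ranged from 13, without AGN D10 replicate 3, to 18 with each library left out. The cause was not tested. Replicate numbers did not pair the libraries: 10 of 165 same-numbered pairs correlated over 0.1 (median r 0.00526), and 13 of 33 libraries lay closest to their own number. A replicate block gave 2 calls at D6.25 between the arms against 1 without it, and none of the 418 changed its call. Counts of Car9, Pfkfb4, Ankrd37 and Eno2 are low, which widens their errors.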
